A study of Rattus norvegicus with 85 samples.

Results

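The transcript of Grik2 carried 6 of the 146 A-to-I RNA editing sites measured in this rat series, out of 179 positions listed for each sample. They were taken as every listed position annotated to Grik2, all on chromosome 20. Editing was read by amplifying the sites from cDNA and sequencing the products, and an editing level is the percentage of reads at a site that carried the edited base. The series held 85 samples, of which 72 were brain samples from the prefrontal cortex (PFC) or the amygdala (AMY) and 13 were oocyte samples. All animals were Sprague-Dawley rats. Of the oocyte samples, 6 were C and 7 were PRS, and their labels give postnatal day 0 and the parental generation. The paper describes the donors as unmated adult C and PRS females given hormonal treatment, so the day 0 label was not used as their age. Adult females at postnatal day 60 were either controls (C) or had gone through pre-reproductive stress in adolescence (PRS). Their newborn offspring at postnatal day 0, taken from both sexes, formed the groups O1-C and O1-PRS. The newborn grandoffspring, also of both sexes and at postnatal day 0, formed O2-C and O2-PRS. There were 5 samples each in C PFC, C AMY, O1-C PFC and O1-C AMY, and 6 each in PRS PFC, O1-PRS PFC, O1-PRS AMY and O2-PRS AMY. PRS AMY, O2-C PFC, O2-C AMY and O2-PRS PFC held 7 samples each. The labels do not say which newborns shared a litter or which PFC and AMY samples came from the same rat. Samples were treated as independent, and the p-values measure the spread between these samples only. The labelled regions could not be checked against marker genes, because the values used here are editing levels and not expression.

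Grik2 encodes GluK2, formerly GluR6, a pore-forming subunit of kainate receptors, which are ionotropic glutamate receptors that act both before and after the synapse. ADAR enzymes deaminate adenosine to inosine in double-stranded stretches of a transcript, and inosine is read as guanosine, so an edited codon can specify another amino acid. Editing at the Q/R site puts an arginine in place of a glutamine in the pore loop and lowers the calcium permeability and conductance of the channel. The I/V and Y/C sites change residues of the first transmembrane segment and modulate the same properties. Editing of GluK2 is known to increase as the brain develops.

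The 6 sites lay on the minus strand, with positions in the rn4 build. I/V was at chr20:53408971-53408971 and Y/C at chr20:53408958-53408958, 13 bases apart. The synonymous G site was at chr20:53378650-53378650, M/V at chr20:53378637-53378637 and Q/R at chr20:53378633-53378633, so that M/V lay 4 bases and G 17 bases from Q/R. The synonymous E site lay 3668 bases further, at chr20:53374965-53374965. Between Y/C and G there were 30308 bases. I/V, Y/C, M/V and Q/R are nonsynonymous, and all 6 sites are coding. The primers are shown because they fix which sites were read on the same molecule: 3 primer pairs covered the gene, so I/V shared its amplicon with Y/C, and G and M/V shared theirs with Q/R. The gene-specific parts are given 5′ to 3′, without the common tails.
I/V and Y/C, first primer: accaaatgcctcccactatc
I/V and Y/C, second primer: tctcccctgatatctggatgt
G, M/V and Q/R, first primer: tttgggcatgagctcagaa
G, M/V and Q/R, second primer: tgtcatagccaggtttagtcc
E, first primer: cgcccacattttatcatacgt
E, second primer: tttcttcgtataccgctaacct

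In each of the 72 brain samples all 6 Grik2 sites had at least 50 reads, with 673 to 52736 reads per site and sample. A level of 50% at 50 reads has a 95% Wilson interval of 36.6 to 63.4%, and at the depths reached here counting error was small. The SD between samples of a group was 2.10 to 24.1 times the binomial SD at I/V, Y/C and Q/R, 0.988 to 11.5 times at M/V, 1.70 to 8.40 times at G and 0.251 to 1.95 times at E. At E, then, the samples differed by little more than counting error allows. The reads carry no molecular identifiers, so these binomial values cover counting error only. Reads at Y/C were 98.4 to 100.8% of those at I/V, which shares its amplicon, whereas reads at G were 46.1 to 85.0% of those at Q/R.

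The 6 sites fell into 3 levels of editing. In the 49 neonatal brain samples Q/R was edited at 62.2 to 88.8%, Y/C at 39.3 to 77.4% and I/V at 31.8 to 73.6%, with medians of 79.5%, 64.4% and 52.2%. G and M/V were edited at 1.4 to 5.9% and 0.6 to 4.2%, and E read 0.2 to 0.8%. Whether the level at E exceeds the rate of sequencing errors was not tested. Q/R stood above Y/C in 49 of the 49 neonatal samples and Y/C above I/V in 48. In the 23 adult samples Q/R ranged from 83.4 to 92.7%, Y/C from 80.7 to 93.0% and I/V from 77.3 to 89.6%. Y/C was still above I/V in 23 of 23, but Q/R was above Y/C in only 12, made up of 5 of 11 PFC samples and 7 of 12 AMY samples. Among the low sites, G exceeded M/V in 42 of 49 neonatal samples and in 11 of 23 adult samples. In the adult PFC the order was mostly turned, with M/V above G in 8 of 11 samples. O1-PRS AMY replicate 53 stood apart from its group, with I/V at 37.6%, Y/C at 39.3% and G at 5.9%, where the other 5 samples read 52.8 to 59.3%, 67.5 to 74.5% and 2.3 to 3.3%. Results that rest on it are given with and without it.

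**Figure D1:**
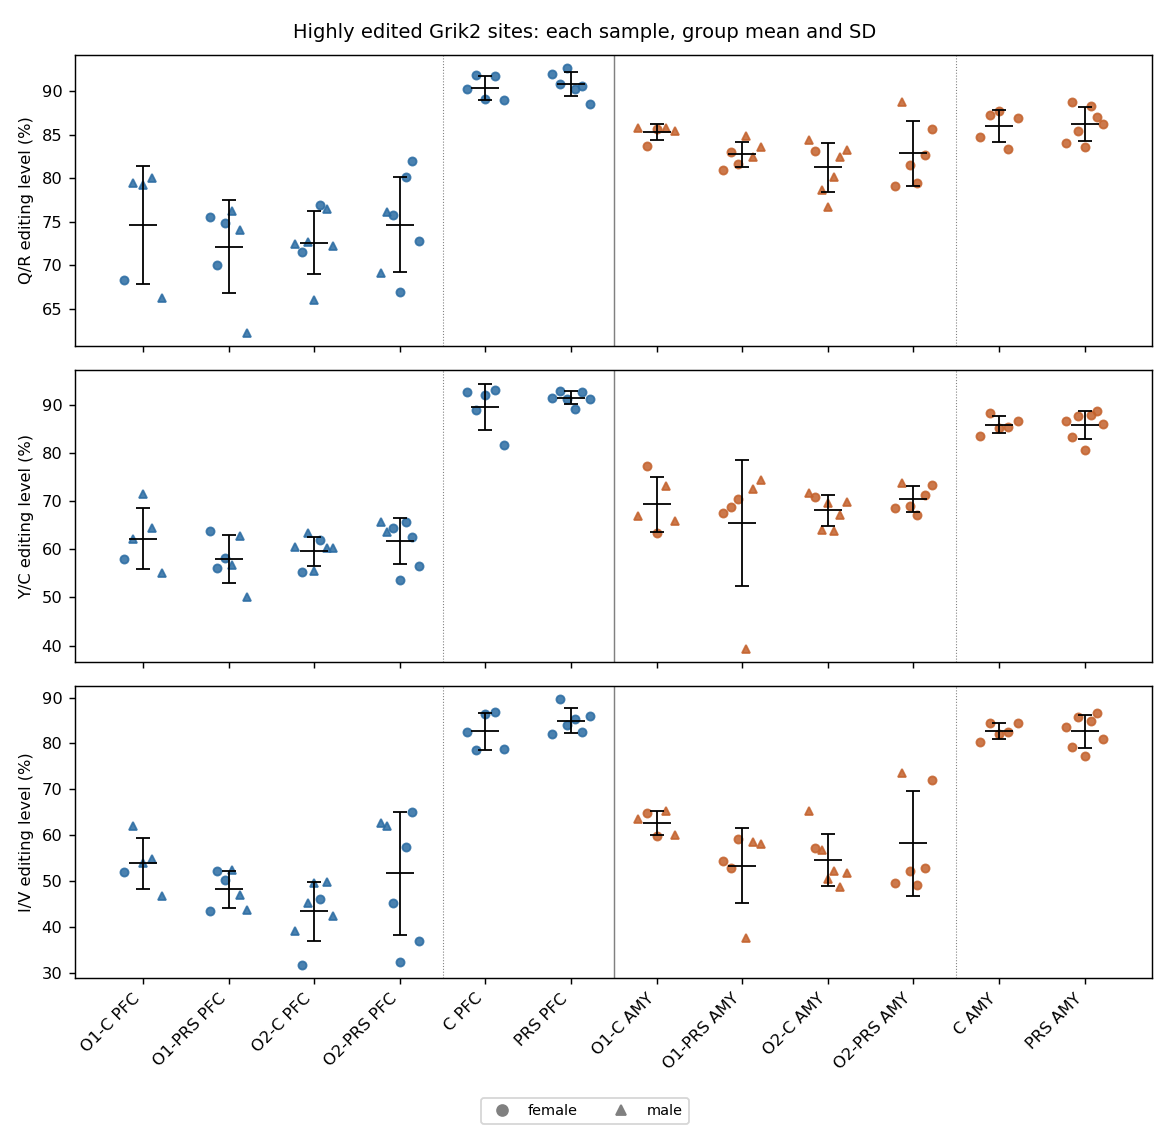
Editing level (%) at Q/R, Y/C and I/V in each brain sample, by group, with PFC in blue, AMY in orange, circles for females, triangles for males and bars for the mean ± SD. At I/V and Y/C the adult groups (C, PRS) lie above every neonatal sample, while at Q/R the adult AMY samples (83.4 to 88.8%) overlap the neonatal AMY samples.

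Ordering the 12 brain groups by their mean gave a different picture for Q/R than for the other sites. At I/V, Y/C, G and M/V only 1 step between neighbouring groups was larger than the SDs of both groups, and it lay each time between the highest neonatal and the lowest adult group. At I/V that step was from 62.7% ± 2.63 (SD, n = 5) in O1-C AMY to 82.6% ± 3.51 (SD, n = 7) in PRS AMY. At Y/C it was from 70.5% ± 2.69 (SD, n = 6) in O2-PRS AMY to 85.9% ± 1.78 (SD, n = 5) in C AMY. Q/R had 2 such steps. The 4 neonatal PFC groups came lowest, with means of 72.2 to 74.7%, followed by the 4 neonatal AMY groups with 81.3 to 85.3%, the adult AMY groups with 86.0 and 86.2%, and the adult PFC groups with 90.4 and 90.9%. The steps lay between O2-PRS PFC (74.7% ± 5.50, SD, n = 7) and O2-C AMY (81.3% ± 2.82, SD, n = 7), and between PRS AMY (86.2% ± 1.98, SD, n = 7) and C PFC (90.4% ± 1.40, SD, n = 5). All other neighbours at Q/R differed by less than the larger SD. E had group means of 0.44 to 0.586% and no step beyond the SDs.

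**Figure D2:**
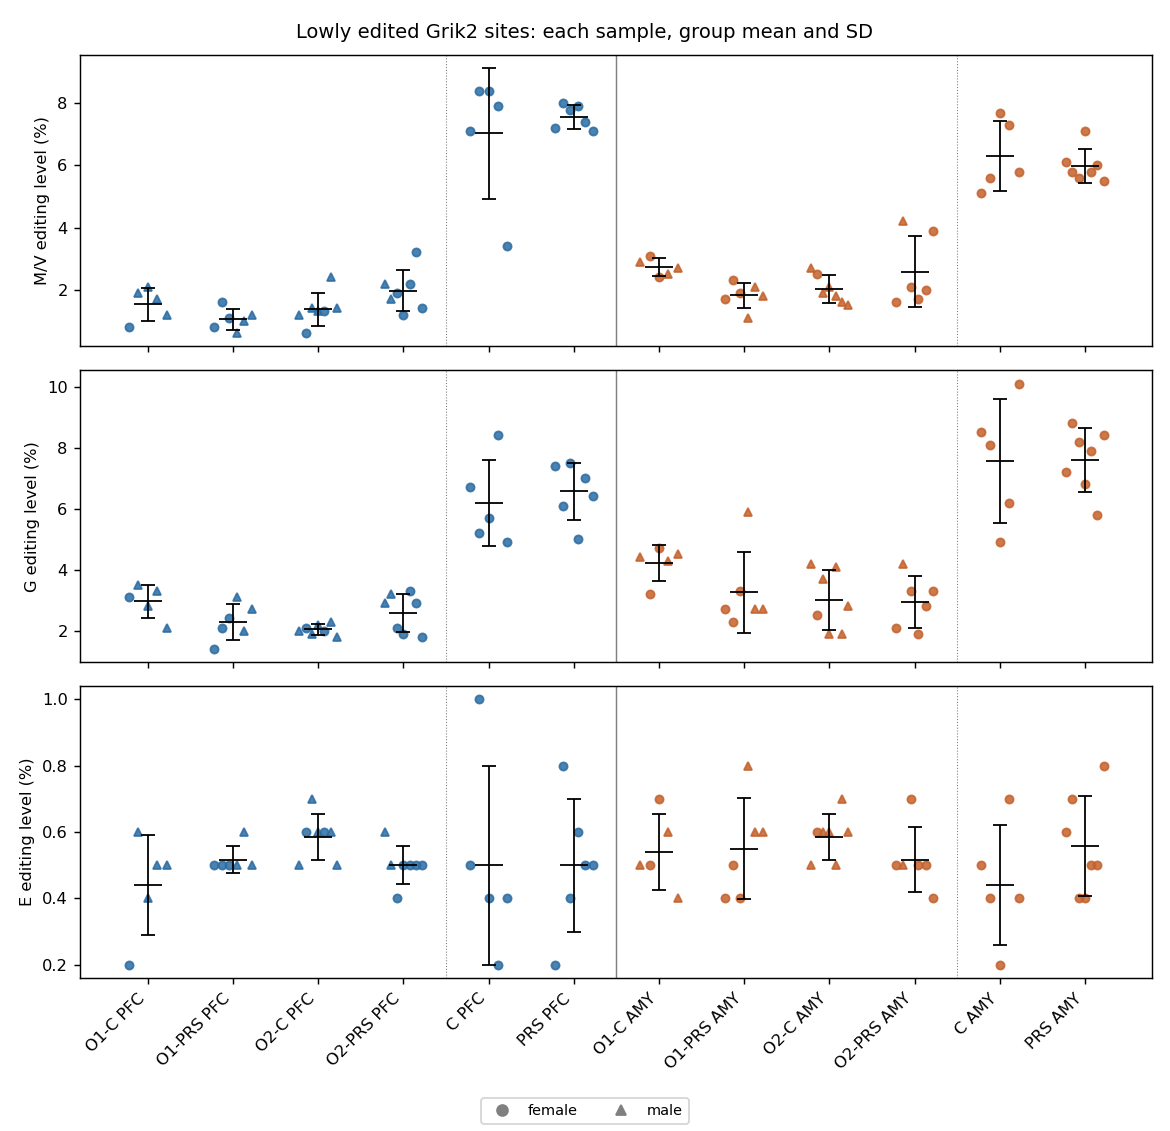
Editing level (%) at M/V, G and E in each brain sample, by group, drawn as in the plot of the highly edited sites. M/V and G lie higher in the adult groups, with C PFC replicate 29 (M/V 3.4%) and O1-PRS AMY replicate 53 (G 5.9%) away from the rest of their groups, and E stays at or below 1.0% throughout.

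The first comparison asked how editing in adult brain differs from that in neonatal brain, for each region and each line of animals. In the PFC of controls, 5 of the 6 Grik2 sites rose between O1-C and C, and 34.7% of the 144 sites tested did so (exact two-sided Mann-Whitney test, Benjamini-Hochberg FDR of 0.1). In the AMY of controls 4 of 6 rose, beside 47.9% of 142 sites. In the stress line, from O1-PRS to PRS, 5 of 6 rose in the PFC, beside 50% of 144 sites, and 5 of 6 in the AMY, beside 54.1% of 146 sites. The adult and neonatal samples did not overlap at 5, 4, 5 and 3 of the 6 sites in these 4 comparisons, and at 27.8, 39.4, 30.6 and 40.4% of all sites tested. E was the site that did not pass in any of these comparisons. The adults were all female and belonged to the parental generation, so age and generation cannot be told apart here. In tissue samples a change in the share of a cell type and a change of editing within cells cannot be told apart either.

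At I/V, which codes for a residue of the first transmembrane segment, the O1-C PFC samples read 46.7, 51.9, 53.9, 54.9 and 62.0%. The C PFC samples read 78.5, 78.9, 82.4, 86.5 and 86.8%. Every adult sample was therefore above every neonatal one, and the mean difference was 28.7 percentage points (95% interval of the shift 20.4 to 35.7, adjusted p = 0.0191 by the exact test). In the AMY, O1-C read 59.8, 60.0, 63.6, 64.9 and 65.2% and C read 80.4, 82.0, 82.4, 84.4 and 84.4%, a difference of 20.0 points (16.8 to 24.4, exact adjusted p = 0.0227). In the stress line I/V went from a lowest, median and highest level of 43.6, 48.6 and 52.5% in O1-PRS PFC to 82.1, 84.7 and 89.6% in PRS PFC. In the AMY it went from 37.6, 56.1 and 59.3% to 77.3, 83.6 and 86.6%. Neither pair of groups overlapped, and the differences were 36.7 points (31.8 to 41.8, exact adjusted p = 0.00456) and 29.2 points (21.7 to 39.7, exact adjusted p = 0.00252).

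Y/C, the other transmembrane site, moved alongside. In the PFC of controls O1-C read 55.1, 58.0, 62.2, 64.4 and 71.4% and C read 81.6, 88.9, 92.0, 92.7 and 93.0%. The groups did not overlap and differed by 27.4 points (17.5 to 36.9, exact adjusted p = 0.0191). In the AMY O1-C read 63.3, 65.9, 66.9, 73.1 and 77.4% and C read 83.5, 85.3, 85.5, 86.7 and 88.3%, which was 16.5 points apart (8.1 to 22.4, exact adjusted p = 0.0227). The stress line gave 33.5 points in the PFC (28.5 to 39.0, exact adjusted p = 0.00456) and 20.3 points in the AMY (11.9 to 41.4, exact adjusted p = 0.00252), again without overlap. Without O1-PRS AMY replicate 53 the AMY differences of the stress line were 15.1 points at Y/C and 26.0 points at I/V (exact adjusted p = 0.00545 for both), and 5 of 6 sites were called as before. Among the sites tested in the PFC of controls, the I/V and Y/C differences ranked 6 and 7 of 144 by size.

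Q/R, the pore-loop site, behaved otherwise in the AMY. In the PFC of controls the O1-C samples read 66.2, 68.3, 79.2, 79.5 and 80.0%, and the C samples 89.0, 89.1, 90.3, 91.8 and 91.9%. There was no overlap, and the level rose by 15.8 points (9.5 to 24.1, exact adjusted p = 0.0191). In the AMY of controls the O1-C samples already read 83.7, 85.5, 85.7, 85.8 and 85.8%, and the C samples 83.4, 84.7, 86.9, 87.3 and 87.8%. These groups overlapped, with a difference of 0.72 points (-2.3 to 3.2) and an exact adjusted p of 0.571. In the stress line Q/R went from a lowest, median and highest level of 62.2, 74.5 and 76.2% in O1-PRS PFC to 88.6, 90.8 and 92.7% in PRS PFC, 18.7 points higher (14.5 to 26.4, exact adjusted p = 0.00456). In the AMY of that line it went from 81.0, 82.7 and 84.9% to 83.6, 86.3 and 88.8%, and the groups overlapped. The rise there was 3.48 points (1.1 to 5.9, exact adjusted p = 0.0114).

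The low sites rose by few points but by a larger factor. M/V, which lies 4 bases from Q/R on the same amplicon, went from 1.54% ± 0.532 (SD, n = 5) in O1-C PFC to 7.04% ± 2.10 (SD, n = 5) in C PFC, 4.57-fold (exact adjusted p = 0.0191). It rose 2.32-fold in the AMY of controls, 7.21-fold in the PFC of the stress line and 3.29-fold in its AMY, with exact adjusted p of 0.0227, 0.00456 and 0.00252. The adult and neonatal groups did not overlap at M/V in any of the 4 comparisons. G, whose editing leaves the amino acid as it is, rose by 3.22 points in the PFC of controls (exact adjusted p = 0.0372) and by 3.34 points in their AMY (exact adjusted p = 0.0208). In the stress line G rose by 4.28 points in the PFC (exact adjusted p = 0.0102) and by 4.32 points in the AMY (exact adjusted p = 0.00583). In that last comparison the groups overlapped, owing to 1 neonatal sample at 5.9%.

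**Figure D3:**
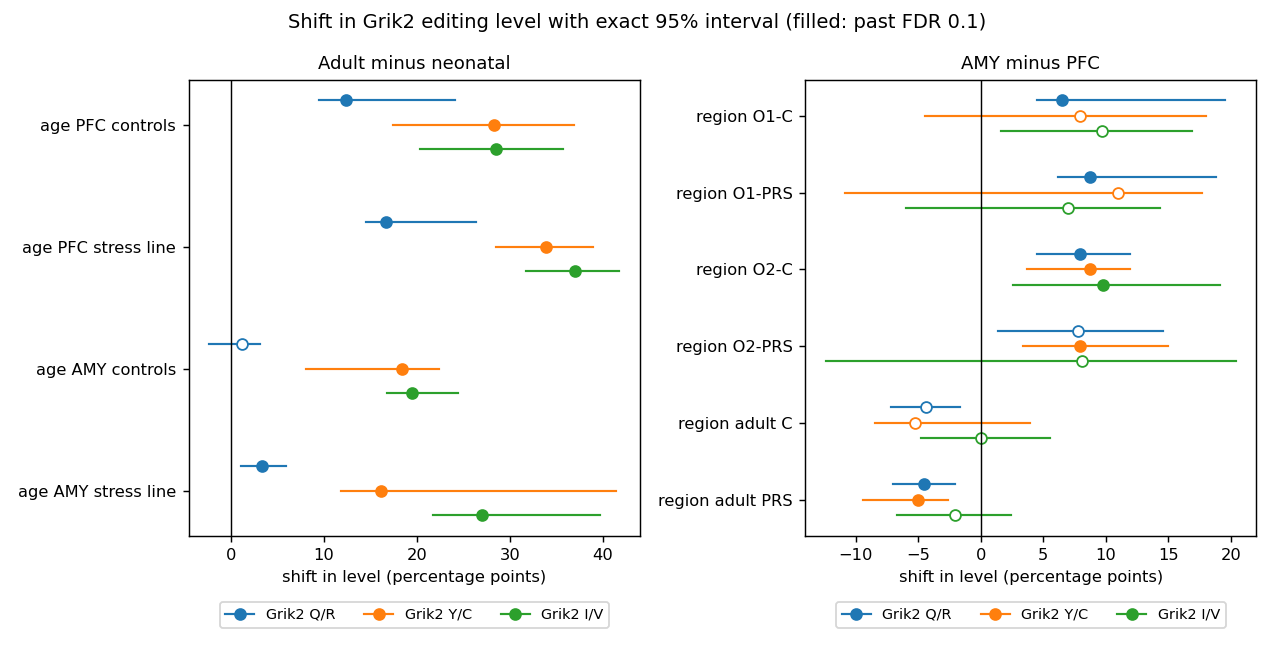
Shift in editing level (percentage points, Hodges-Lehmann estimate with its exact 95% interval) at Q/R, Y/C and I/V, adult minus neonatal on the left and AMY minus PFC on the right, with filled symbols for sites past an FDR of 0.1. Adult minus neonatal estimates are above 0 at each of these sites, though the interval at Q/R in the AMY of controls spans 0. The AMY minus PFC estimates at Q/R and Y/C are above 0 in neonatal groups and below 0 in adult ones. Of these, Y/C in O1-C and O1-PRS, Q/R in O2-PRS and both sites in adult controls did not pass.

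The libraries carry running numbers, which were divided here into sets of 48, and whether such a set was processed together is not stated. In 5 cases adult and neonatal samples of the same region and line fell in the same set. In controls each case held 1 neonatal sample, set against 5 adults in the PFC and against 3 and 2 adults in the AMY. The stress line had 6 adults against 3 neonates in the PFC and 5 against 2 in the AMY. Within these cases the adult level was higher in 5 of 5 at I/V, Y/C and M/V. The differences were 18.5 to 36.2 points at I/V, 8.7 to 32.1 points at Y/C and 3.45 to 6.4 points at M/V. At Q/R the within-set differences were 17.4 to 22.1 points in the PFC and 0.9 to 3.66 points in the AMY. Among females only, the adult level was higher in 4 of 4 comparisons at each of these sites. In the PFC the split by sex was the same as the split by library set, so it is no separate check there.

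Whether the age difference was the same in both regions was put to a permutation test of the difference itself. In controls, 7.14% of the 140 sites tested had age differences that differed between PFC and AMY, and Q/R was 1 of them: its age difference was larger in the PFC by 15.1 points (p = 3.15e-05, permutation adjusted p = 0.00126). In the stress line, 13.9% of the 144 sites were called, 3 of them in Grik2. The age difference was larger in the PFC by 15.2 points at Q/R and by 2.35 points at M/V, both with a permutation adjusted p of 0.0002, and by 13.1 points at Y/C, with a permutation adjusted p of 0.0822. The unadjusted permutation p at Q/R, 1e-05, is the smallest these draws can give. I/V did not pass in either line, with differences of 8.72 points in controls (permutation adjusted p = 0.108) and 7.52 points in the stress line (permutation adjusted p = 0.222). Q/R remained called when any 1 sample was left out, in 20 of 20 fits in controls and 25 of 25 in the stress line, and M/V in 25 of 25. Y/C in the stress line passed in 9 of 25 only. Without O1-PRS AMY replicate 53 the stress line had 4 called Grik2 sites, and without C PFC replicate 29 the controls had 4.

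The regions were then compared within each group. Among neonates, the AMY was higher than the PFC at 2 of the 6 Grik2 sites in O1-C, beside 4.11% of 146 sites tested, and at 4 in O2-C, beside 16.9% of 142. It was higher at 2 in O1-PRS and at 1 in O2-PRS, beside 4.79% of 146 sites in each. In adult PRS animals, 3 Grik2 sites were lower in the AMY, beside 3.47% of 144 sites. In adult controls none of the 6 passed (0% of 140 sites). At an unadjusted exact p under 0.05 there was 1 Grik2 site in adult controls, beside 12.9% of all sites, and the permutation test of the means called none. The regions did not overlap at 2 Grik2 sites in O1-C (6.85% of all sites) and at 1 each in O2-C (4.23%), O1-PRS (3.42%), O2-PRS (2.05%), adult C (6.43%) and adult PRS (3.47%). The C, PRS, O1-C and O1-PRS samples here are those of the age comparisons.

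Neonatal Q/R editing was 10.7 points higher in the AMY than in the PFC in O1-C (interval 4.5 to 19.5, exact adjusted p = 0.0542), without overlap between the 5 samples of each region. This call and that at M/V in O1-C were lost without any 1 of 6 of the 10 samples (highest exact adjusted p = 0.108) and with all sites adjusted together (0.116). The difference was 10.6 points in O1-PRS (exact adjusted p = 0.0222, no overlap) and 8.64 points in O2-C (exact adjusted p = 0.0117), where the regions overlapped. In O2-PRS it was 8.20 points (1.4 to 14.6), with an exact adjusted p of 0.101. The O2-C PFC samples had a lowest, median and highest Q/R level of 66.0, 72.5 and 76.9%, and the O2-C AMY samples 76.7, 82.4 and 84.4%. The O2-PRS samples had 66.9, 75.8 and 82.0% in the PFC and 79.1, 82.1 and 88.8% in the AMY.

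Y/C editing in O2-C was 55.3, 60.3 and 63.4% (lowest, median, highest) in the PFC and 63.8, 69.7 and 71.6% in the AMY, with no overlap and 8.56 points between the means (exact adjusted p = 0.00777). In O2-PRS it was 8.82 points higher in the AMY (exact adjusted p = 0.0239, no overlap). In the first generation the Y/C differences were 7.1 points in O1-C (exact adjusted p = 0.260) and 7.53 points in O1-PRS, and neither passed. Without O1-PRS AMY replicate 53, however, 4 Grik2 sites were called in O1-PRS, with Y/C higher in the AMY by 12.8 points and I/V by 8.36 points (exact adjusted p = 0.0254 for both). With all samples I/V passed in O2-C only, with 11.2 points (exact adjusted p = 0.0186), and had differences of 8.82, 5.2 and 6.55 points in O1-C, O1-PRS and O2-PRS. M/V was higher in the AMY in O1-C by 1.18 points (exact adjusted p = 0.0542), in O1-PRS by 0.767 points (exact adjusted p = 0.0740) and in O2-C by 0.643 points (exact adjusted p = 0.0414). The O1-PRS call at M/V was lost without any 1 of 9 of the 12 samples and with all sites adjusted together (exact adjusted p = 0.176). Within library sets, 8 pairs of neonatal groups could be compared. The AMY level was higher in 8 of 8 at Q/R, by 6.53 to 17.4 points, in 8 of 8 at Y/C, by 5.3 to 11.6 points, and in 7 of 8 at I/V, where the differences ran from -0.7 to 20.1 points.

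In adult PRS animals Y/C was lower in the AMY, at 80.7, 86.7 and 88.8% (lowest, median, highest), than in the PFC, at 89.2, 91.3 and 92.9%. The regions did not overlap, and the difference was -5.60 points (-9.4 to -2.6). Q/R differed by -4.62 points (-7.0 to -2.1) and M/V by -1.58 points (-2.2 to -1.0), and all 3 had an exact adjusted p of 0.0233. I/V differed by -2.32 points (exact adjusted p = 0.637). In adult controls the Q/R levels of the regions did not overlap either, with 83.4 to 87.8% in the AMY against 89.0 to 91.9% in the PFC. The difference was -4.4 points (-7.2 to -1.7), and the exact p of 0.00794, the smallest that 5 against 5 samples allow, came to 0.106 after adjustment. Y/C differed by -3.78 points in adult controls (exact adjusted p = 0.488) and I/V by 0.1 points.

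Besides age and region, the study addressed stress before reproduction, so PRS groups were next set against controls within each region and generation. In F1 AMY, that is O1-PRS against O1-C, 2 Grik2 sites were lower in O1-PRS, I/V and M/V. They were the only sites called there, 1.37% of 146, and the only ones whose groups did not overlap, also 1.37%. No Grik2 site was called in the adult PFC (0% of 142 sites), the adult AMY (0% of 142), F1 PFC (0% of 146), F2 PFC (1.41% of 142) or F2 AMY (2.05% of 146). In those 5 comparisons the number of Grik2 sites with an unadjusted exact p under 0.05 was 0 except in F2 PFC, where E passed and made it 1, and the permutation test of the means called 0. Over all sites the share at that unadjusted p was 4.23% in the adult PFC, 2.11% in the adult AMY, 6.85% in F1 PFC, 16.2% in F2 PFC and 6.16% in F2 AMY.

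The O1-PRS AMY samples had I/V levels of 37.6, 56.1 and 59.3% (lowest, median, highest), and the O1-C AMY samples had 59.8, 60.0, 63.6, 64.9 and 65.2%. All O1-PRS samples lay below all O1-C samples, and the mean level was 9.28 points lower (interval of the shift -22.4 to -1.5, exact adjusted p = 0.0887). M/V read 1.1, 1.85 and 2.3% against 2.4, 2.5, 2.7, 2.9 and 3.1%, again without overlap, and was 0.903 points lower (-1.4 to -0.4, exact adjusted p = 0.0887). Both calls depended on the setting. They were lost with a permutation test of the means (adjusted p = 0.133), with all 146 sites adjusted together (exact adjusted p = 0.316), and at an FDR of 0.05. Leaving out any 1 of 10 of the 11 samples also ended both, O1-PRS AMY replicate 53 included, without which I/V differed by -6.12 points (exact adjusted p = 0.108). Without O1-C AMY replicate 40, by contrast, 3 Grik2 sites were called. In library set 5 the differences were -9.58 points at I/V and -0.97 at M/V, and in set 1 they were -6.25 and -0.40, while the test within sets did not pass (exact adjusted p = 0.112).

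At Q/R the F1 AMY samples had 81.0, 82.7 and 84.9% in O1-PRS against 83.7 to 85.8% in O1-C, a difference of -2.55 points (-4.5 to -0.7, exact adjusted p = 0.118). For Y/C in F1 AMY the mean difference was -3.79 points but the estimated shift was 1.0 points. O1-PRS AMY replicate 53, at 39.3%, set the mean there, and without it the mean difference was 1.46 points. In F2 PFC, I/V had 32.5, 57.5 and 65.1% (lowest, median, highest) in O2-PRS and 31.8, 45.2 and 49.8% over the 7 O2-C samples, so that the groups overlapped. The difference there was 7.50 points (-9.9 to 19.9, exact adjusted p = 0.659), without O2-C PFC replicate 155, which had few reads at other genes. In F2 AMY it was 3.58 points (-7.6 to 20.2). Sex was unevenly split between the F2 groups. O2-C AMY held 1 female and 6 males, and O2-PRS AMY 5 and 1. O2-C PFC held 2 females and 5 males, and O2-PRS PFC 5 and 2. In F2 AMY the I/V difference was -2.04 points among females and 19.4 points among males, with 1 group holding a single sample each time. In F2 PFC it was 8.44 and 15.5 points, and there the sexes also fell in different library sets. In adults the I/V differences were 2.31 points in the PFC and -0.106 points in the AMY, and those at Q/R 0.43 and 0.209 points.

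**Figure D4:**
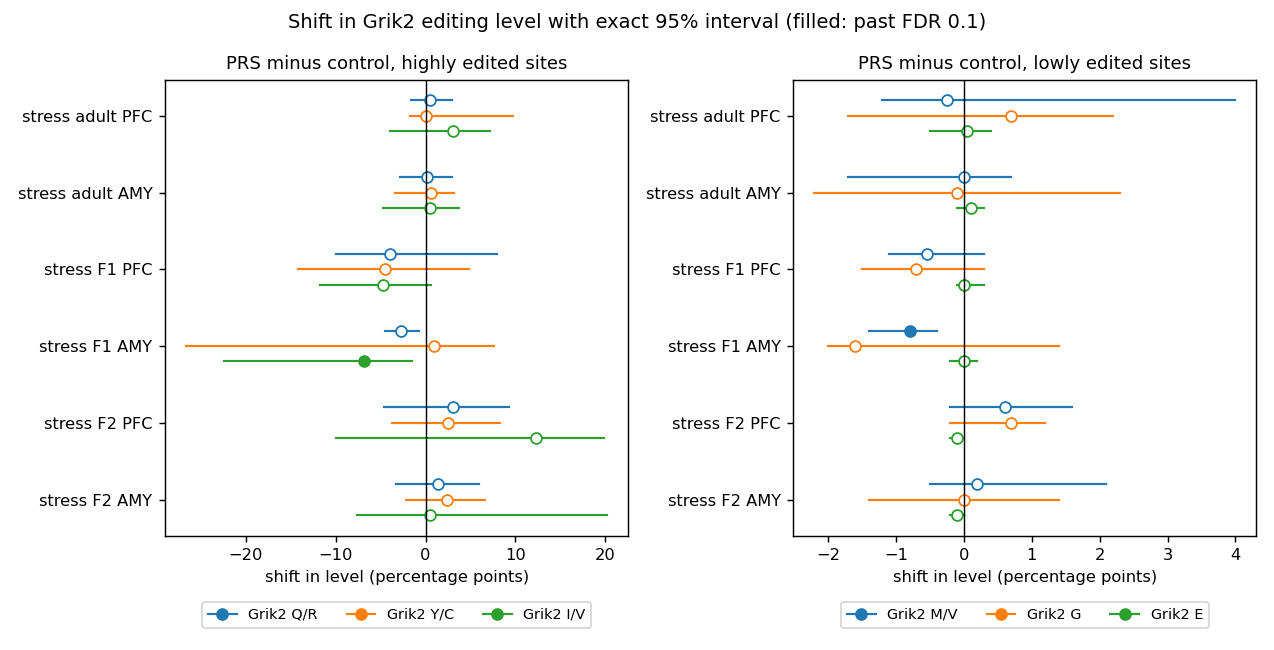
Shift in editing level (percentage points, Hodges-Lehmann estimate with its exact 95% interval), PRS minus control, at Q/R, Y/C and I/V on the left and M/V, G and E on the right, with filled symbols for sites past an FDR of 0.1. I/V and M/V in F1 AMY are the filled symbols, and the interval at I/V in F2 spans from -9.9 to 19.9 points in the PFC and from -7.6 to 20.2 points in the AMY.

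The stress difference itself was compared between regions and between generations. Between the regions no Grik2 site passed in adults, F1 or F2 (0% of all sites tested in each), and none had an unadjusted permutation p under 0.05. Between F1 and F2 none passed either, beside 2.82% of 142 sites in the PFC and 2.05% of 146 in the AMY. There 3 and 2 Grik2 sites had an unadjusted permutation p under 0.05. M/V in the AMY came closest, with a stress difference 1.47 points higher in F2 than in F1 and a permutation adjusted p of 0.10, just over the threshold. I/V differed by 12.9 points in the AMY (permutation adjusted p = 0.245) and by 13.2 points in the PFC (permutation adjusted p = 0.254).

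Control newborns of the 2 generations, the same samples that served as controls for stress, were also compared. Q/R in the AMY differed by -4.04 points between O2-C and O1-C (-7.1 to -1.3, exact adjusted p = 0.0828), the only Grik2 site called there, beside 4.11% of 146 sites. The O2-C AMY samples had a lowest, median and highest Q/R level of 76.7, 82.4 and 84.4%, and the O1-C AMY samples lay at 83.7 to 85.8%, so the groups overlapped. The call was lost without any 1 of 7 of the 12 samples (highest exact adjusted p = 0.166), with all sites adjusted together, with reads pooled within groups (exact adjusted p = 0.275) and in the test within sex. I/V differed by -8.04 points in the AMY (exact adjusted p = 0.179) and by -10.4 points in the PFC (exact adjusted p = 0.202). In the PFC no Grik2 site was called (0% of 142 sites), with 2 (I/V and G) at an unadjusted exact p under 0.05, beside 8.45% of all sites, and none by the permutation test of the means. The generations fell in different sets of library numbers, so set and generation cannot be told apart, except for 1 AMY sample of each in set 4. There Q/R read 84.4% in O2-C and 83.7% in O1-C, a difference of 0.7 points in the other direction.

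Sites also varied together between samples of a group. For 20 relations between pairs of Grik2 sites, each sample's deviation from its group mean was used, and 8 relations passed an FDR of 0.1 in a permutation test within groups. Y/C and I/V, which were read on the same amplicon, were related in the adult AMY (n = 12, r = 0.95, rho = 0.94, adjusted p = 0.0002) and the neonatal AMY (n = 24, r = 0.66, rho = 0.69, adjusted p = 0.0008). Without the 2 samples farthest from the median, r was 0.90 and 0.54. In the neonatal PFC (n = 25) the same pair had r = 0.47 (adjusted p = 0.0853), and within library sets it no longer passed (r = 0.42, adjusted p = 0.245). Q/R and Y/C, read on different amplicons, were related in the neonatal PFC (r = 0.71, rho = 0.61, adjusted p = 0.00387, permutation test). There r was 0.60 without the 2 farthest samples and 0.77 within library sets. In the neonatal AMY the same pair had rho = 0.20 and did not pass.

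Q/R and I/V passed in the neonatal PFC (r = 0.45, rho = 0.48, adjusted permutation p = 0.0947 for r and 0.104 for rho). Q/R and its neighbour M/V passed in the neonatal PFC (r = 0.47, rho = 0.48, adjusted permutation p = 0.0914 for r and 0.104 for rho) and AMY (r = 0.59, rho = 0.36, 0.0947 and 0.267), but not within library sets (adjusted p = 0.146 and 0.336). In the adult AMY, M/V and G were related with the opposite sign (n = 12, r = -0.77, rho = -0.80, adjusted p = 0.0853), with r = -0.65 without the 2 farthest samples and -0.89 within sets. In the adult PFC no relation passed. The pair M/V and I/V was added after the data had been seen, which made 24 relations. M/V and I/V lie on different amplicons, and they had r = 0.88 in the neonatal AMY (rho = 0.84, adjusted p = 0.00096) and r = 0.68 in the neonatal PFC (rho = 0.64, adjusted p = 0.00566). Without the 2 farthest samples r was 0.80 and 0.62, and within library sets 0.88 and 0.79. In adults the pair had r = -0.27 in the AMY and 0.46 in the PFC, neither of which passed (adjusted p = 0.424 for both).

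**Figure D5:**
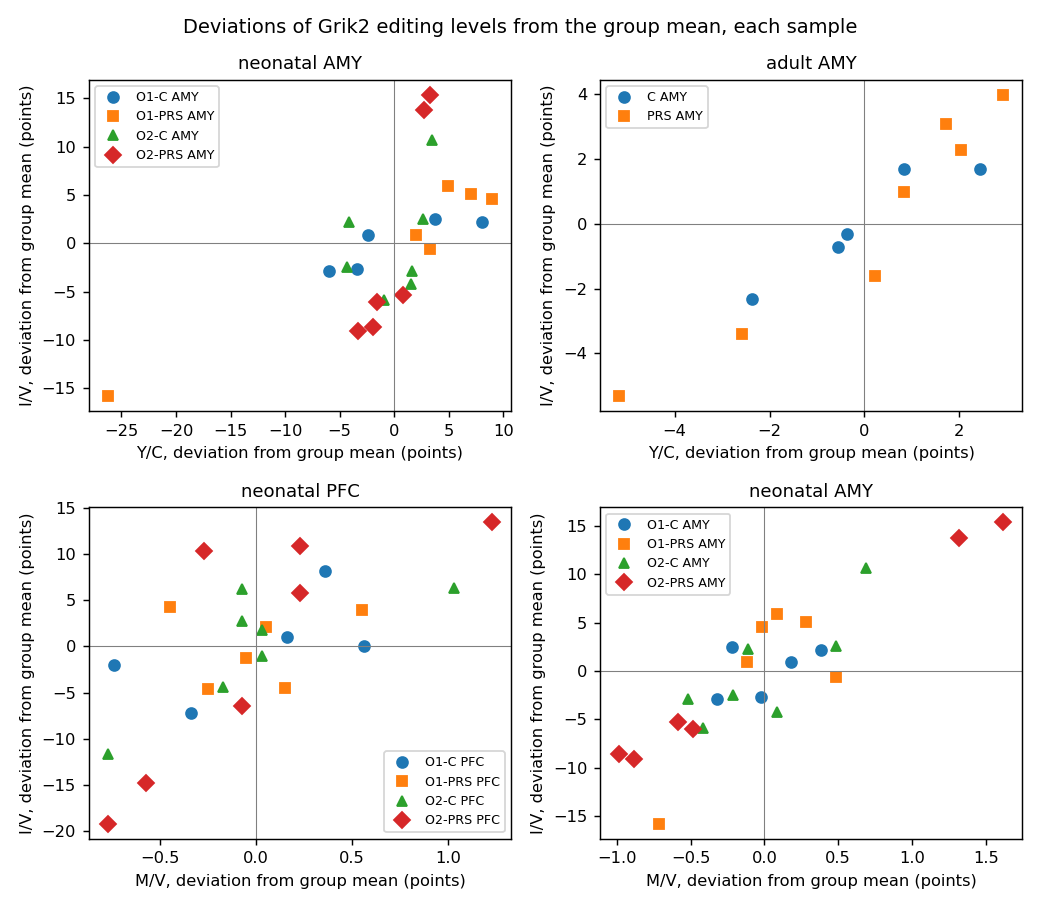
Deviations of single samples from their group mean (percentage points) for Y/C against I/V in the neonatal and adult AMY and for M/V against I/V in the neonatal PFC and AMY. The points rise together in all 4 panels, with r of 0.66, 0.95, 0.68 and 0.88, and O1-PRS AMY replicate 53 lies far to one side in the neonatal AMY.

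The 12 group means of Grik2 Q/R were closest in rank to those of a site in the 3′ UTR of Commd2 on chromosome 2 (rho = 0.98), the B site of Htr2c, which codes for the serotonin 2C receptor (0.95), and a site in the 3′ UTR of Hip1 on chromosome 12 (0.94). The likeness was Spearman's rho over the group means, taken among the 86 sites whose mean was 1% or more, and is given as a description. For Y/C the closest were Commd2 (0.96), Hip1 (0.93) and Htr2c B (0.93). For I/V they were Hip1 (0.95), Commd2 (0.94) and the Q/R site of Gria2 (0.94). That last likeness is one of ranks only, since the Gria2 group means covered 99.5 to 99.9%. The median rho over all sites was 0.78, 0.75 and 0.76 against I/V, Y/C and Q/R, and the points share samples, libraries and the contrast of ages. Within Grik2, rho was 0.98 between Q/R and Y/C, 0.97 between Q/R and M/V, and 0.94 between Q/R and I/V.

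Besides Grik2, 11 sites lay in other ionotropic glutamate receptor transcripts, those of the AMPA receptor subunits Gria2, Gria3 and Gria4 and of the kainate subunit Grik1. Of them 7 rose with age in the PFC of controls, 9 in the AMY of controls, 9 in the PFC of the stress line and 8 in its AMY, where 34.7, 47.9, 50 and 54.1% of all sites tested rose. In the PFC of controls the R/G site of Gria4 had means of 20.8% in neonates and 64.1% in adults, that of Gria3 60.6% and 94.0%, and that of Gria2 38.4% and 55.1%. The Grik1 site had 31.5% and 47.8%, and the Q/R site of Gria2, which is edited nearly to completion, 99.6% and 99.8%. The median age difference in the PFC of controls was 10.6 points over the 6 Grik2 sites, 1.7 points over these 11 and 1.30 points over all sites tested. In the AMY of controls it was 3.46, 2.04 and 2.21 points. Of the 4 measured sites in Adarb1, the gene of the editing enzyme ADAR2, 2, 3, 3 and 2 rose in these 4 age comparisons, beside the same 34.7, 47.9, 50 and 54.1% of all sites. In the neonatal comparisons of AMY with PFC, 2, 4, 2 and 0 of the 11 receptor sites were higher in the AMY in O1-C, O2-C, O1-PRS and O2-PRS, beside 4.11, 16.9, 4.79 and 4.79% of all sites. No site of either list was called between PRS and control groups.

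In oocytes 18 of 78 Grik2 values rested on at least 50 reads, from 6 of the 13 samples, so no test was made and single values are given with their reads. The Wilson intervals cover the counting error of reads only, because the reads carry no molecular identifiers. The number of cDNA molecules behind the reads is not known. The paper reports that neither Adar nor Adarb1 mRNA was detected in oocytes. C oocyte replicate 163 read 99.9% at Y/C (3901 of 3906 reads, 95% Wilson interval 99.7 to 99.9%) and 0.2% at I/V (8 of 3975 reads, 0.102 to 0.397%), on the same amplicon. PRS oocyte replicate 167 had 1 edited read of 3549 at Y/C and 1 of 3570 at I/V, with upper Wilson limits of 0.159% at each. In C replicate 169 Y/C was edited in 8 of 71 reads (11.3%, 5.82 to 20.7%) and I/V in 6 of 66 (9.1%, 4.23 to 18.4%). In the brain samples neither site fell below 31.8%. Q/R was edited in 2050 of 10633 reads in C replicate 163 (19.3%, Wilson interval 18.5 to 20.0%) and in 77 of 81 in C replicate 169 (95.1%, 88.0 to 98.1%). In the PRS group it was edited in 38 of 50 reads in replicate 170 (76.0%, 62.6 to 85.7%) and in 51 of 66 in replicate 165 (77.3%, 65.8 to 85.7%). The first of these values lay below, and the second above, every brain sample, which read 62.2 to 92.7%. M/V was edited in 66 of 10541 reads in C replicate 163 (0.6%, 0.492 to 0.796%). It was edited in 0 of 51 reads in PRS replicate 170 and 0 of 73 in PRS replicate 165, where 3 reads would be 5.88 and 4.11% and the upper Wilson limits are 7.00 and 5.00%.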

How the data were processed

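Editing was measured by microfluidic multiplex PCR and sequencing in 72 brain and 13 oocyte samples. Per the authors, cDNA was amplified on an Access Array, sequenced on a NextSeq instrument and aligned to rn4 with BWA. The submitters' processing notes also name SAMtools, and neither version is given for these tables in the sources used here. For each sample the deposited tables give counts of reads covering and edited at each of 179 positions, and the authors' editing level as the fraction of edited reads, to 3 decimals. Both depend on equal amplification of the edited and unedited cDNA.

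Levels with at least 50 reads were used, in percent. Groups with at least 3 such samples were compared at the 146 study sites in 18 comparisons by a two-sided exact Mann-Whitney test with complete enumeration. The p-values were adjusted by Benjamini-Hochberg, with a call at an FDR of 0.1, as in the study's methods. Nonsynonymous and other sites were adjusted apart, a choice made here that those methods do not state, and adjustment over all sites together was an alternative. Intervals are exact 95% intervals of the Hodges-Lehmann shift. Each of 7 differences of effects was tested by permuting the residuals of an additive fit, over all arrangements or 100000 draws. O2-C PFC replicate 155, with 35.6% of sites under 50 reads (limit 30%), was left out of the F2 PFC stress comparison and its 2 differences of effects. The tests recovered known changes in simulated data. Those changes were large, and the simulated spread was below the highest SDs seen at I/V and Y/C (13.3 and 13.1 points). Smaller changes and wider spreads were not simulated, so that check does not bear on them. Total reads over the study sites ran from 149278 to 3274843 in brain and from 18705 to 424442 in oocytes. All 6 Grik2 sites were named, and the lists of other glutamate receptor and Adarb1 sites were added to them. The sites and the lists were chosen with earlier results of these data known. Alternatives covered the test, its adjustment, the read minimum, pooled reads, sets of library numbers, sex and leaving out each sample. The tests ran on scipy 1.17.1 and numpy 2.4.6 under Python 3.11.15, tables were read with pandas 2.3.3, and matplotlib 3.10.9 drew the plots.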

Additional observations from a re-analysis of the deposited data

Results flagged for a closer look

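A sample stood apart from its group in 9 of the 72 combinations of site and brain group checked, by a rule set to flag about 1 in 20 (5%) by chance. O1-PRS AMY replicate 53 accounted for 3 of them, with the lowest I/V level of its group at 37.6% (the others 52.8 to 59.3%), the lowest Y/C level at 39.3% (67.5 to 74.5%) and the highest G level at 5.9% (2.3 to 3.3%). These values rested on 11926, 11936 and 27036 reads, and the Q/R level of the same sample, 84.9%, was the highest of its group. O1-C AMY replicate 40 had the lowest G level of its group, at 3.2%, and the lowest Q/R level, at 83.7%. C PFC replicate 29 had the lowest M/V level, at 3.4% where the others lay at 7.1 to 8.4%, on 2147 reads. PRS AMY replicate 6 had the highest M/V level of its group, at 7.1%. At E, O1-PRS PFC replicate 70 with 0.6% and O2-PRS AMY replicate 118 with 0.7% were the highest. The other O1-PRS PFC samples all read 0.5%, so that gap is the rounding step of the levels. The share of 5% holds for independent checks of unrounded values, which these are not, since sites share samples and amplicons.

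The age difference was larger in the PFC than in the AMY at Q/R, by 15.1 points in controls and by 15.2 points in the stress line, and in the stress line also at Y/C, by 13.1 points, and at M/V, by 2.35 points. Each of these passed the permutation test of the difference, Y/C depending on the samples kept.

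In oocytes, 12 of the 18 Grik2 values with at least 50 reads were above the level that 3 edited reads would give. In C replicate 163 these were 99.9% at Y/C, 19.3% at Q/R, 0.6% at M/V, 0.4% at E and 0.2% at both I/V and G. In C replicate 169 they were 95.1% at Q/R, 11.3% at Y/C and 9.1% at I/V. In PRS oocytes they were 77.3% and 76.0% at Q/R in replicates 165 and 170, and 0.4% at E in replicate 4-2s. In C replicate 163, 3 edited reads would give 0.0755% at I/V, 0.0452% at G and 0.0632% at E. Whether the values of 0.2 to 0.6% exceed the rate of sequencing errors was not tested.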

How the results depend on the processing

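The counts of Grik2 sites called with age (5, 4, 5 and 5 of 6) and between the regions in O2-C (4) and adult PRS (3) stayed within 1.5 times under every alternative run, and no called value changed its sign. The other counts called moved as follows, and the cause was not tested. With all sites adjusted together the count went from 2 to 0 for the regions in O1-C, from 2 to 1 in O1-PRS, from 2 to 0 for stress in F1 AMY and from 1 to 0 for generation in the AMY, and an FDR of 0.05 gave the same 0, 1, 0 and 0. A permutation test of the means gave 2 (from 1) for the regions in O2-PRS, 0 for stress in F1 AMY and 3 for generation in the AMY. Reads pooled within groups gave 1 for the regions in O1-PRS, 1 for stress in F1 AMY, 1 (from 0) for generation in the PFC and 0 in the AMY. Permuting within library sets or within sex gave 0 for stress in F1 AMY, and within sex 0 for generation in the AMY. Levels computed from the reads without rounding, an alternative chosen after seeing the data, gave 2 for generation in the AMY. Deviations taken within library sets left 5 of 20 relations in place of 8. At a minimum of 200 reads 3 oocyte samples in place of 6 had a Grik2 value.

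With each sample left out in turn, the counts ranged from 0 to 3 for the regions in O1-C (3 without O1-C PFC replicate 69; 0 without O1-C AMY replicate 46, 56, 59 or 61 or O1-C PFC replicate 43 or 66), from 1 to 4 in O1-PRS (4 without O1-PRS AMY replicate 53; 1 without 9 of the others) and from 1 to 2 in O2-PRS (2 without O2-PRS PFC replicate 133). They ranged from 0 to 3 for stress in F1 AMY (3 without O1-C AMY replicate 40) and from 0 to 3 for generation in the AMY (3 without O2-C AMY replicate 145). For the age difference between regions they ranged from 1 to 4 in controls and from 2 to 4 in the stress line, and for the stress difference between generations from 0 to 1 in each region. A read minimum of 200, no minimum and the default form of the Mann-Whitney test in R changed no count of sites called. The test within library sets was not run for age in controls, for age in the AMY of the stress line or for generation, nor the test within sex for age in controls, because those splits allow no p under 0.05. No paired analysis was made, because the labels do not say which samples came from the same rat, and all samples were treated as independent. The smallest exact p that 5 against 5 samples allow is 0.00794.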
